A study of Mus musculus with 8 samples.

Results

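The 8 genes described here make phosphatidylserine or place it in the cell membrane: Ptdss1, Ptdss2, Pisd, Xkr8, Ano6, Plscr1, Atp8a1 and Tmem30a. They were taken by gene name, through the RefSeq accession of each probe, from scanner files that hold 60273 gene probes under 47327 names. All 8 were on the array, read by 11 probes, 5 genes by 1 probe each and 3 genes (Xkr8, Plscr1 and Atp8a1) by 2. The set was chosen on the function of its genes with the log2 signals of Ptdss1 in both groups already known, so the differences between the groups are given as a description and support nothing by themselves.

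The cells came from bone marrow chimeras of the mouse: wild-type hosts that had received marrow labelled with DsRed, a red fluorescent protein, from either Psgl1+/+ or Psgl1-/- donors (PSGL-1, encoded by Selplg, is a leukocyte glycoprotein that binds selectins). All hosts had their middle cerebral artery closed for 30 min to produce a stroke. On day 7 the ischemic tissue was dissociated, CD11b+ cells were enriched on magnetic beads with myelin removal, and PI- DsRed+ CD11b+ CD45hi cells negative for Ly6G (neutrophils) and CD3 (T cells) were sorted. The 4 samples labelled Psgl1+/+ (replicates 1 to 4) are called wild-type below, and the 4 labelled Psgl1-/- (replicates 5 to 8) knockout. DsRed marks the donor marrow, so the gate keeps donor-derived cells, while the brain and vessels around them belong to a wild-type host. The labels give neither the age of the mice nor how many animals contributed to a sample, so the spread between samples may in part be technical.

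Phosphatidylserine is an aminophospholipid that a living cell keeps on the inner face of its plasma membrane. Flippases pump it inward at the cost of ATP, and scramblases let it move both ways when they are switched on by calcium or by caspases. On the outer face it marks dying cells for uptake by phagocytes and gives clotting factors a surface to bind, and macrophages that enter an infarct clear cells and debris that carry it.

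In these samples the largest difference among the 8 genes was that of Ptdss1, the synthase that exchanges the head group of phosphatidylcholine for serine, whose signal on each of the 4 knockout arrays lay above that on each wild-type array. Ptdss2, the second synthase, and Pisd, which turns phosphatidylserine into phosphatidylethanolamine in mitochondria, had differences smaller than their SE. None of the 8 genes passed the adjusted threshold of 0.05 in limma over all 42476 tested genes, of which 1 (0.00235%) passed. At an unadjusted p under 0.05 there were 2 of the 8, Ptdss1 higher and Atp8a1 lower, against 10.8% of all tested genes (1.62% higher and 9.2% lower). Of the 8 differences 3 were positive and 5 negative, where 31% of all tested genes had a positive one. The median difference (knockout minus wild-type, log2 scale) was -0.25 over the 8 genes and -0.33 over all tested genes, and this general shift ranged from -0.33 to -0.01 over the scalings tried. At an unadjusted p under 0.05, 687 genes were higher and 3907 lower here, against 1251 and 803 after cyclic loess.

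Where a gene had 2 probes they could be set against each other. The probes below are shown because the results turn on them: the single probe of Ptdss1 and both probes of Xkr8, Plscr1 and Atp8a1. In each case 30 bases are printed as the files give them, bases 1 to 30 of the probe, except for Atp8a1 probe A, where bases 21 to 50 are printed. Capitals mark a long stretch that holds only G and T, while shorter stretches of this kind are left in small letters. Probe A is the brighter one and stands for the gene.
Ptdss1 probe A: tgtctttctggctcatgtgaggtgctagtg
Xkr8 probe A: tgtggcagaatgtagaacacctggttggtg
Xkr8 probe B: gtatgtccctccagtgtcctgatgctcagg
Plscr1 probe A: acctgtgatgcctgggtgccctgttgtaca
Plscr1 probe B: aatggaaactgaggaatcacaaggcacaca
Atp8a1 probe A: TGGTGTGTGTGTGTTTGTTTTTGTTTTTTG
Atp8a1 probe B: tgttgcttacaataacactgtgtggctccg

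Atp8a1 probe A stands out by its letters. G or T made up 90% of its 50 bases, with an unbroken run of 36 such bases, and 5 of the 60273 probes, this one included, had a share as high. The other 10 probes of these genes held 44.4% to 67.3% G or T and runs of at most 11. The highest of these shares, 67.3%, was that of the Ptdss1 probe, whose longest run was 6. Its share was above that of 97% of all probes, and whether this affects its signal was not tested. The probes were 46 to 56 bases long and the files give them no genomic position. The Ptdss1 probe lists 1 transcript, and both probes of Plscr1 list the same 2.

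All values below are log2 signals after each array was scaled to its 75th percentile, and they are compared between arrays for 1 probe at a time, since probes differ in brightness for reasons of their own. Of the gene spots, 76.1% to 88.2% were well above background, without a separation of the groups. Before scaling, the 75th percentile of the signal was 525.8 to 748.6 on the wild-type arrays and 833.3 to 958.8 on the knockout arrays, so every knockout array was the brighter in this measure. By the array positions in the names of the scanner files, which no label states, the 8 arrays lay on 1 slide in 2 rows, each with 2 arrays of either group. By the same names the groups lay in different columns, so column and group cannot be told apart. The share of spots above background was 86.2% to 88.2% in row 1 and 76.1% to 81.6% in row 2. The probe of Selplg gave 12.68 to 15.74 on the wild-type and 12.88 to 13.45 on the knockout arrays. The labels do not say which part of Selplg was deleted, so this probe checks nothing and all directions rest on the labels. CD11b (Itgam, 13.11 to 14.18 on the wild-type and 12.23 to 14.34 on the knockout arrays), Csf1r and CD45 (Ptprc) were well above background on all 8 arrays, but so were CD3 (Cd3e) and the platelet gene Pf4, and Ly6g was so on 7, so detection alone does not tell the sorted cells from others. Some of these markers varied more between arrays than Itgam did. Ptprc gave 8.65 to 13.89 on the wild-type and 8.88 to 13.04 on the knockout arrays. Cd3e gave 6.25 to 12.04 and 5.48 to 6.42, Pf4 5.64 to 11.21 and 9.10 to 11.94, and Ly6g 2.30 to 8.59 and 6.54 to 10.92. In RNA from many cells, fewer cells of a type and less RNA per cell cannot be told apart.

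**Figure D1:**
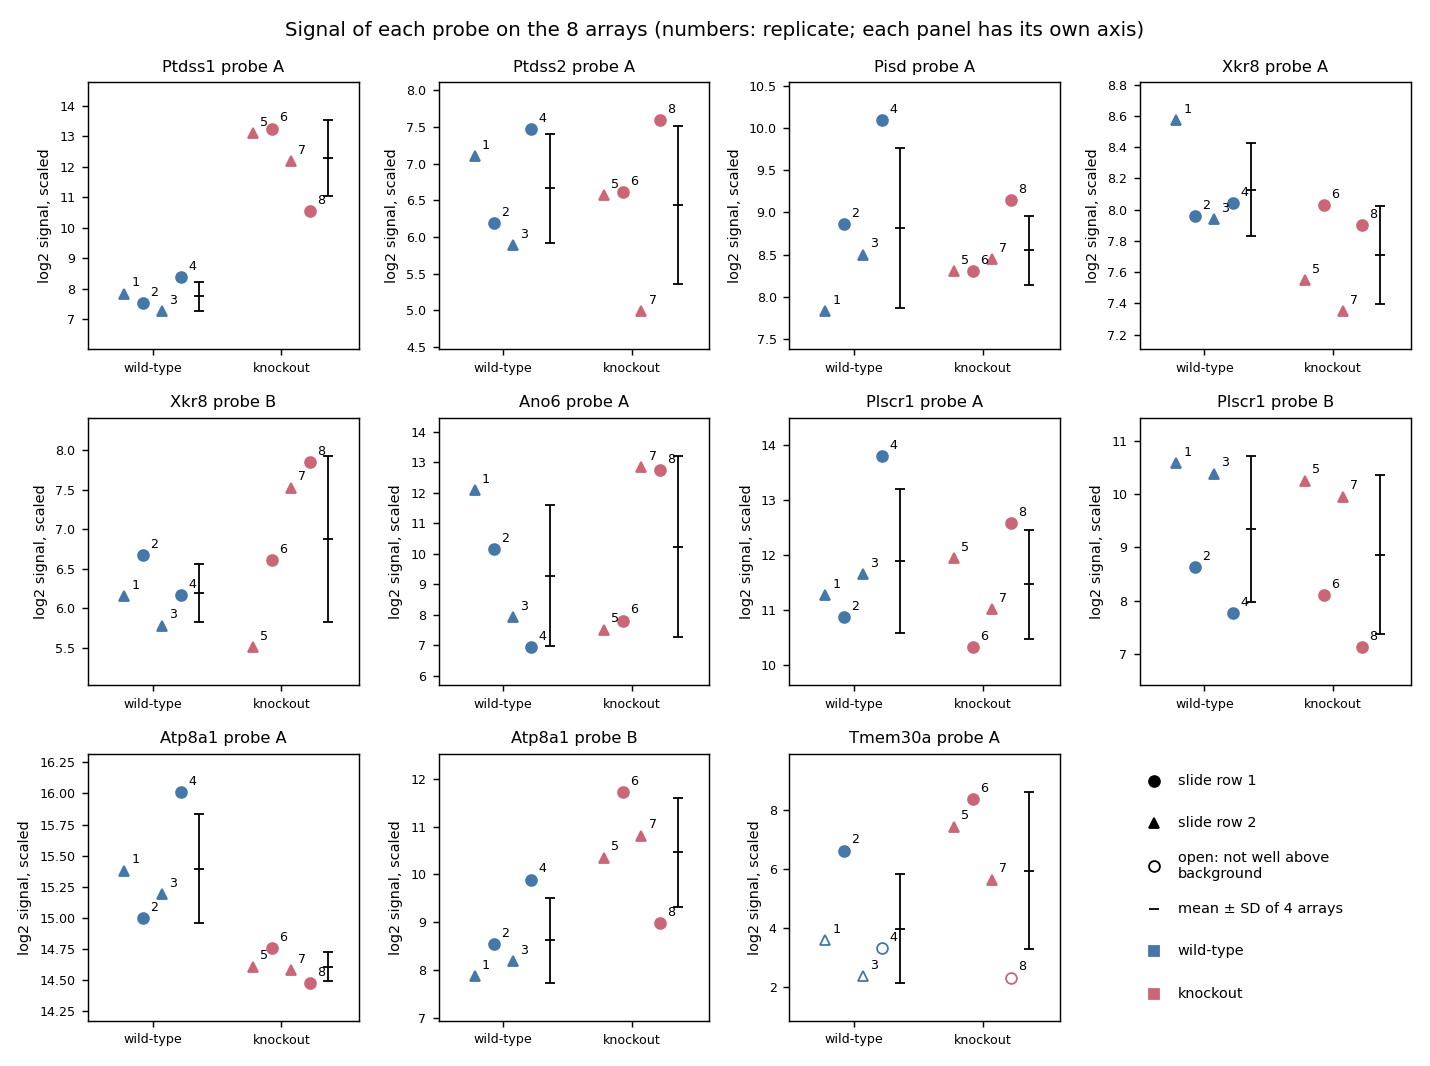
Log2 signal (vertical axis, scaled to the 75th percentile of each array) of the 11 probes on the 4 wild-type (blue) and 4 knockout (red) arrays, numbered by replicate, with the mean ± SD of each group. Circles are arrays of slide row 1 and triangles of row 2, and open symbols were not well above background. The groups stand apart for Ptdss1 probe A and Atp8a1 probe A, while the rows stand apart for Plscr1 probe B.

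The synthases are described first. The processed signal of Ptdss1 before scaling was 210, 183, 125 and 232 in the wild-type group (in the order of replicates 1 to 4, as throughout), against 10046, 11306, 5212 and 1901 in the knockout group (replicates 5 to 8). After scaling these were 7.83, 7.52, 7.26 and 8.37 in the wild-type group against 13.10, 13.25, 12.19 and 10.54 in the knockout group. The wild-type arrays lay close together and the knockout arrays were all higher, with knockout replicate 8 the nearest to them. The wild-type mean was 7.74 ± 0.48 (SD, n = 4) and the knockout mean 12.27 ± 1.25 (SD, n = 4). They lay 4.53 apart (SE 0.62), or 23.0-fold, with an adjusted p of 0.217 in limma. The difference was 3.95 within slide row 1 and 5.10 within row 2, and 4.20 to 5.10 when each array was left out in turn. Its adjusted p ranged from 0.0767, without knockout replicate 8, to 0.428 over 19 settings, and the gene passed in none of them. Groups without overlap were found for 11.4% of tested genes with a value on every array, but for 0.65% with the knockout arrays above. The gene had no other probe to be compared with, and the higher 75th percentile of the knockout arrays before scaling moved with it, whose part in the result was not tested.

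Among 25619 genes with a symbol, likeness to the profile of Ptdss1 over the 8 arrays was measured by the root mean square of the difference between 2 profiles after each gene was centred on its own mean. Mrps9, a protein of the mitochondrial ribosome, was nearest at 0.52 and Gm4961 was also near at 0.83, where the median over all genes was 2.65. Gm4961 was well above background on only 4 of the 8 arrays. It gave 2.06 to 3.28 on the wild-type and 6.14 to 7.99 on the knockout arrays. Its likeness to Ptdss1 may thus rest on wild-type values near background. Mrps9 stood between 6.02 and 6.51 in the wild-type group and at 11.48, 10.78, 9.98 and 8.04 on knockout replicates 5 to 8. The second probe of Mrps9 gave a difference of -1.30, against 3.78 for the probe with the Ptdss1-like profile, so it did not share the likeness.

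Ptdss2, which uses phosphatidylethanolamine as its substrate, had log2 signals of 7.10, 6.19, 5.89 and 7.47 in the wild-type group against 6.57, 6.61, 4.99 and 7.59 in the knockout group. Both the highest and the lowest value came from the knockout group, so the groups overlapped throughout. The difference was -0.23 (SE 0.61, 95% interval -1.65 to 1.20, adjusted p = 0.888 by limma), which leaves room for a change in either direction. It was 0.27 within slide row 1 and -0.72 within row 2.

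Pisd, the decarboxylase of the inner mitochondrial membrane, gave 7.83, 8.86, 8.50 and 10.09 in the wild-type group against 8.30, 8.30, 8.45 and 9.15 in the knockout group. All 4 knockout values lay inside the range of the wild-type values. The difference was -0.27 (SE 0.50, 95% interval -1.42 to 0.89, adjusted p = 0.831 by limma), and it was 0.15 without wild-type replicate 4, the highest array. Its pseudogene copies Pisd-ps1, Pisd-ps2 and Pisd-ps3 have probes of their own, well above background on all 8 arrays, with differences of 0.00, -0.01 and 0.54, and whether the Pisd probe also binds their RNA was not tested. Across the 3 enzymes, then, the signal that separated the groups was that of Ptdss1 alone. Its signals were already known when the set was chosen, so this contrast with the other 2 is a description.

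Among the proteins that expose phosphatidylserine, Ano6 (TMEM16F), a scramblase opened by calcium, had the widest spread. Its log2 signal was 12.10, 10.16, 7.92 and 6.95 in the wild-type group against 7.52, 7.81, 12.85 and 12.75 in the knockout group. Arrays with a high signal (wild-type replicate 1, knockout replicates 7 and 8) and with a low one occurred in both groups. The SD within groups was 2.66, larger than for 92.1% of tested probes, and the median over all tested probes was 0.78. The difference was 0.95 (SE 1.67, 95% interval -2.94 to 4.84, adjusted p = 0.822 by limma). It went from 0.08 without knockout replicate 7 to 1.89 without wild-type replicate 1, so single arrays decide its size.

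Xkr8 is the scramblase that caspases switch on by cutting it when a cell undergoes apoptosis. Probe A gave 8.57, 7.96, 7.94 and 8.04 in the wild-type group against 7.55, 8.03, 7.35 and 7.90 in the knockout group. These values were close together in both groups, with an SD within groups of 0.31, and 3 of the 4 knockout arrays lay below every wild-type array. The difference was -0.42 (SE 0.28, 95% interval -1.06 to 0.22, adjusted p = 0.531 by limma). Probe B gave 6.15, 6.67, 5.78 and 6.17 in the wild-type group against 5.51, 6.61, 7.53 and 7.85 in the knockout group. Here knockout replicates 7 and 8 were the highest and knockout replicate 5 the lowest. The difference of probe B was 0.68 (SE 0.53, adjusted p = 0.595 in limma over all 51382 tested probes, of which 0.0175% passed and 10.3% had an unadjusted p under 0.05), opposite in sign to that of probe A. The change of probe A relative to probe B was -1.10 (exact permutation test over the 70 assignments of 4 arrays, two-sided p = 0.143). The smallest p this test can give is 0.0286, so the result shows neither that the probes differ nor that they agree.

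Plscr1, named a phospholipid scramblase, is known as a gene induced by interferon. Probe A gave 11.27, 10.87, 11.65 and 13.80 in the wild-type group against 11.94, 10.33, 11.02 and 12.58 in the knockout group. Wild-type replicate 4 and knockout replicate 8 were the highest, and the groups overlapped, with a difference of -0.43 (SE 0.75, 95% interval -2.18 to 1.32, adjusted p = 0.820 by limma). Without wild-type replicate 4 it was 0.20. Probe B gave 10.58, 8.63, 10.38 and 7.77 in the wild-type group against 10.25, 8.11, 9.95 and 7.14 in the knockout group. These values followed the slide row and not the group, at 10.29 ± 0.26 (SD, n = 4) on the arrays of row 2 and 7.91 ± 0.63 (SD, n = 4) on those of row 1. Rows without overlap were found for 1.98% of the 51203 probes with a value on every array, and for 0.615% with row 2 higher. No other of the 11 probes separated the rows. The arrays on which probe A was highest, wild-type replicate 4 and knockout replicate 8, were those on which probe B was lowest. The group difference of probe B was -0.48 over all arrays, -0.58 within row 1 and -0.38 within row 2, and with the row as a block its SE went from 0.92 to 0.34 (adjusted p = 0.585 in limma over all probes).

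**Figure D2:**
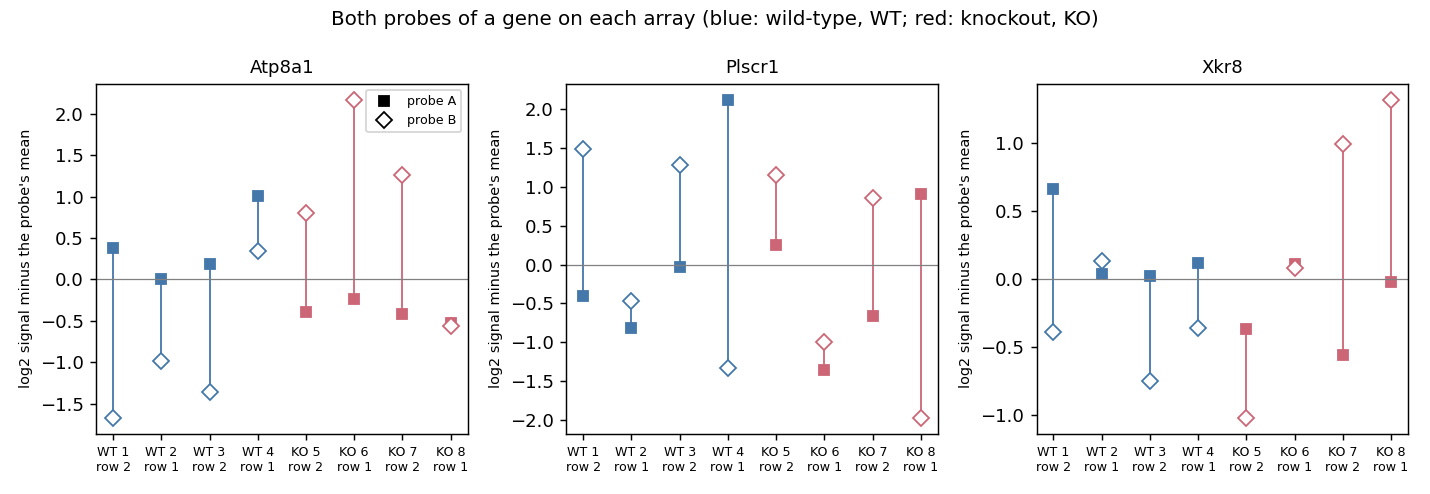
Log2 signal minus the mean of the probe over the 8 arrays (vertical axis) for probe A (filled squares) and probe B (open diamonds) of Atp8a1, Plscr1 and Xkr8, on each array (horizontal axis, with replicate and slide row; blue wild-type, red knockout). For Atp8a1 probe A lies above probe B on the 4 wild-type arrays and below it on knockout replicates 5, 6 and 7, and for Plscr1 probe B alternates with the row.

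The flippase pair comes last. Atp8a1 is a P4-ATPase that moves phosphatidylserine to the inner leaflet, and Tmem30a (CDC50A) is the subunit that such pumps need to leave the endoplasmic reticulum. Atp8a1 probe A, the one rich in G and T, gave 15.38, 15.00, 15.19 and 16.01 in the wild-type group against 14.61, 14.76, 14.58 and 14.48 in the knockout group. All 4 knockout arrays lay below all 4 wild-type arrays, as they did for 10.8% of those genes. The difference was -0.79 (SE 0.28, 95% interval -1.44 to -0.13, adjusted p = 0.458 by limma). It was -0.31 after quantile normalization and -0.35 after cyclic loess and with normexp, and in these 3 settings the groups overlapped.

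Atp8a1 probe B lists 10 transcripts and gave 7.87, 8.55, 8.19 and 9.89 in the wild-type group against 10.35, 11.72, 10.81 and 8.98 in the knockout group. Knockout replicates 5, 6 and 7 lay above every wild-type array, and knockout replicate 8 below wild-type replicate 4. The difference was 1.84 (SE 0.67, 95% interval 0.28 to 3.40, adjusted p = 0.477 in limma over all probes), 1.13 within slide row 1 and 2.55 within row 2. Relative to probe B, probe A was lower in the knockout arrays by a change of -2.63, from 6.77 ± 0.61 (SD, n = 4) to 4.15 ± 1.03 (SD, n = 4), and the groups did not overlap in this measure. How often that is so over all genes with 2 probes was not counted. Single probes separated the groups in 11.1% of cases. The exact permutation test gave a two-sided p of 0.0286, the smallest that 4 arrays against 4 can give, and 0.0857 after Benjamini-Hochberg adjustment over the 3 genes with 2 probes. The change was -3.08 to -2.26 when each array was left out in turn. The sign of the difference for Atp8a1 thus differed between its 2 probes, and the mean of both probes gave 0.53. Over all 4866 genes with 2 tested probes, 60.0% had differences of the same sign, and of these 3 genes it was Plscr1 alone.

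Tmem30a was the dimmest of the 11 probes relative to background. It was well above background on wild-type replicate 2 and knockout replicates 5, 6 and 7, and not on the other 4 arrays. The log2 signals were 3.59, 6.62, 2.38 and 3.33 in the wild-type group against 7.43, 8.36, 5.64 and 2.32 in the knockout group, and the processed signal before scaling ran from 4.26 to 382. After scaling the lowest value came from knockout replicate 8 (2.32), just below wild-type replicate 3 (2.38), which was the lowest before scaling (4.26). Neither was well above background, and the groups overlapped. The difference was 1.96 (SE 1.44, 95% interval -1.39 to 5.31, adjusted p = 0.568 by limma), 0.37 within slide row 1 and 3.55 within row 2. With normexp, which shrinks differences between dim spots, it was 0.96.

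**Figure D3:**
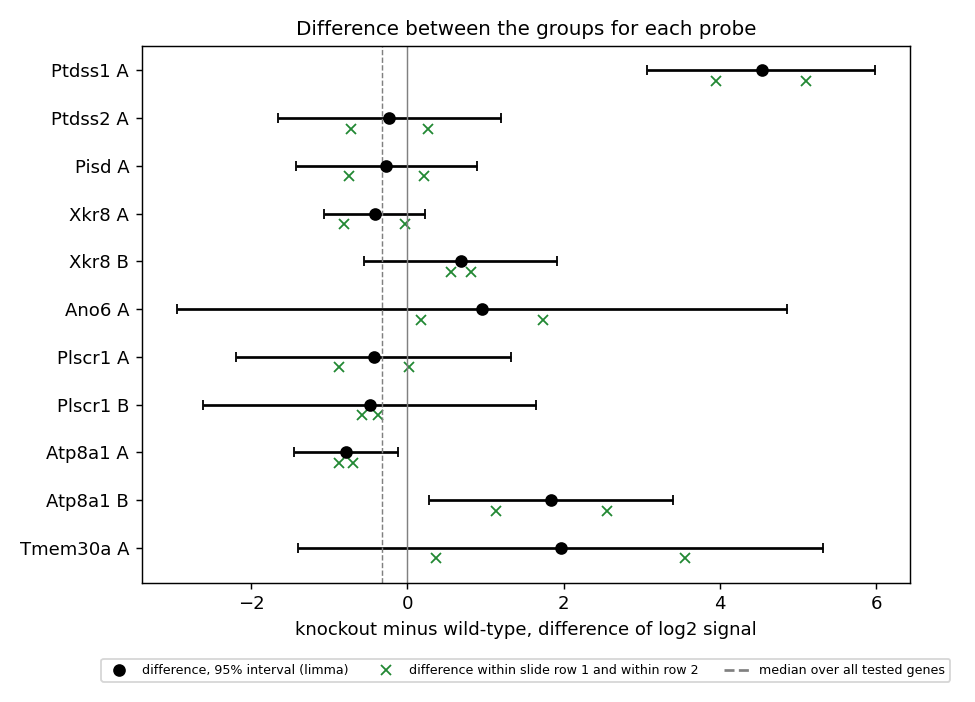
Difference of log2 signal, knockout minus wild-type (horizontal axis), for each of the 11 probes with its 95% interval from limma, and the differences within each slide row (green crosses). The interval of Ptdss1 runs from 3.07 to 5.98, those of Atp8a1 probes A and B lie on opposite sides of 0, and the other 8 include 0.

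The wider pathway was described by 5 lists with 85 genes, all of them tested, chosen like the 8 genes with earlier results of these data known. None of the 85 passed the adjusted threshold (lowest adjusted p = 0.458 by limma), while 7 had an unadjusted p under 0.05 (2 with a positive and 5 with a negative difference), which is 8.24% against 10.8% of all tested genes. The median difference over the 85 genes was -0.13, with 35 positive and 50 negative. The signs of list medians below depend on the scaling: after cyclic loess they were -0.14 for synthesis and transport, 0.17 for flippases, 0.26 for scramblases, 0.39 for receptors and 0.09 for the lysophosphatidylserine genes.

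Of 18 genes of aminophospholipid synthesis and transport, 4 had a positive and 14 a negative difference (median -0.39). Osbpl5, a lipid exchanger that carries phosphatidylserine from the endoplasmic reticulum to the plasma membrane, was at -0.82 (SE 0.29) and Pemt, which methylates phosphatidylethanolamine, at -0.59 (SE 0.34). Abca1, which exports phospholipid and cholesterol, was at 1.05 (SE 0.84) and Prelid3b, a lipid carrier of mitochondria, at 0.93 (SE 0.91). Adjusted p-values were 0.458 for Osbpl5 and 0.496 to 0.672 for the other 3 genes.

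Of the other 16 flippase and CDC50 genes, 6 were positive and 10 negative (median -0.15). Atp11b, a P4-ATPase of endosomes, gave 4.89, 5.16, 5.76 and 5.26 in the wild-type group against 4.62, 10.39, 11.09 and 9.14 in the knockout group. Knockout replicates 6, 7 and 8 were far above all others and knockout replicate 5 below them, for a difference of 3.54 (SE 1.31, adjusted p = 0.458 by limma). Atp11b has a second probe on the array, which, like that of Pla1a below, is not reported here. Tmem30c, a CDC50 protein, was at -0.61 (SE 0.24) and Atp8a2, a close relative of Atp8a1, at -0.64 (SE 0.29), with 1.44 for its second probe. After cyclic loess, which moves the median of all genes to -0.01, Tmem30c was at -0.27 and Atp8a2 at -0.40.

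Of 25 other scramblases and their partners, 11 were positive and 14 negative (median -0.08). Xkr9, another caspase-activated scramblase, gave 5.37 to 7.43 on the wild-type arrays and 4.40 to 4.95 on the knockout arrays, a difference of -1.68 (SE 0.53, adjusted p = 0.458), which was -0.68 with normexp. Xk, which gives the family its name, was at -0.69 (SE 0.24, adjusted p = 0.458).

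**Figure D4:**
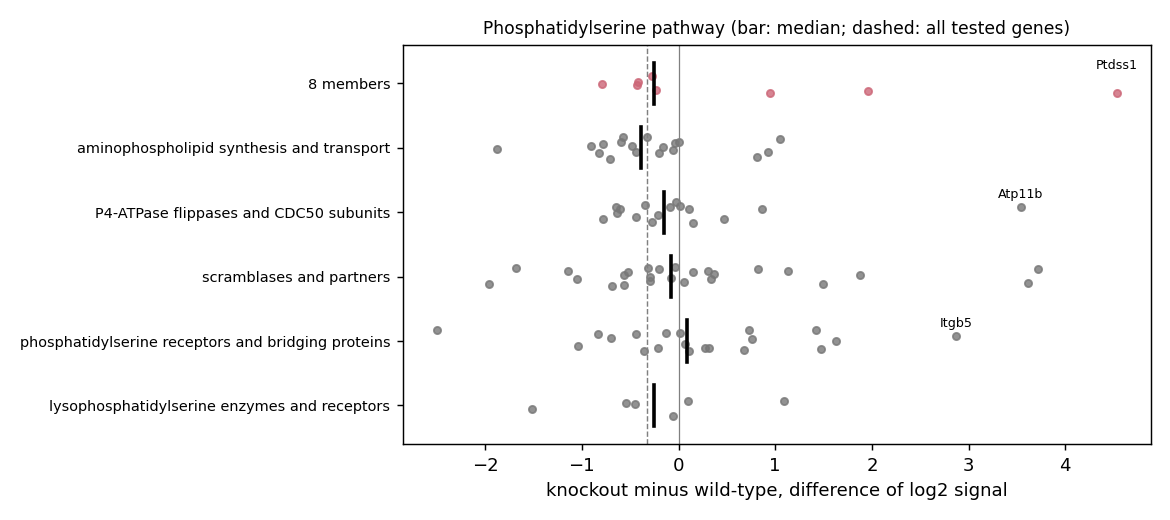
Difference of log2 signal, knockout minus wild-type (horizontal axis), of each gene of the 8 described here (red) and of the 5 pathway lists (grey, vertical position spread at random within a list), with the median of each list as a bar and that of all tested genes (-0.33) as a dashed line. Ptdss1, Atp11b and Itgb5 are named. The list medians lie between -0.39 and 0.09, and a few single genes lie far to the right.

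On the side of the cell that recognises phosphatidylserine, 12 of 20 receptors and bridging proteins were positive and 8 negative (median 0.09). Itgb5, an integrin subunit that takes part in uptake through the bridging protein Mfge8, was at 2.87 (SE 1.44) and the bridging protein Pros1 at 0.73 (SE 0.47, second probe 0.27). Ager was at -1.04 (SE 0.42), and its other 3 probes gave -0.71, -0.70 and -0.07. Tyro3, a receptor tyrosine kinase, was at -0.70 (SE 0.39), and its second probe at -2.61. Adjusted p-values in limma were 0.458 to 0.529 for these 4 genes. Of 6 lysophosphatidylserine enzymes and receptors, 2 were positive and 4 negative (median -0.26), from Abhd16a, a phosphatidylserine lipase, at 1.09 (SE 0.79, second probe -0.66) and Gpr34 at 0.10 (SE 0.37) to Pla1a at -0.45 (SE 0.24) and Gpr174 at -0.54 (SE 0.50), with adjusted p-values of 0.478 to 0.916 in limma.

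Marker lists of 12 cell types were set beside these values. The mean log2 signal of 12 monocyte and macrophage markers was 10.17 to 12.74 on the wild-type arrays and 11.10 to 12.81 on the knockout arrays. With this scaling the 7 dendritic cell markers were the one of the 12 lists whose mean separated the groups (after cyclic loess the astrocyte markers also did, upward), at 9.76 to 9.98 on the wild-type and 8.63 to 9.37 on the knockout arrays, with 7 of 7 differences negative (median -0.62; 6 of 7 and -0.34 after cyclic loess) and none past the adjusted threshold. All 7 were well above background on all 8 arrays. Of single genes with a value on every array, 10.8% separated the groups with the knockout arrays lower. The 9 neutrophil markers gave 6.52 to 8.45 and 7.91 to 9.15. At an unadjusted p under 0.05, 1 of them was higher (S100a9) and no marker of the other lists was, where 1.62% of all tested genes were. Lower at that p were 2 of 5 B cell markers (Cd79a and Cd79b) and 2 of 5 neuron markers (Snap25 and Syt1). So were 1 of 8 microglia markers (Cx3cr1), 1 of 7 dendritic cell markers (Xcr1) and 1 of 5 endothelial markers (Pecam1). The remaining lists had none lower, where 9.2% of all tested genes were lower. Platelets expose phosphatidylserine through Ano6, and the mean of their 6 tested markers was 8.22 to 8.63 on the wild-type and 8.36 to 8.97 on the knockout arrays. The part of the dendritic cell markers, which moved with the groups as Ptdss1 did in the other direction, was not tested.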

How the data were processed

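RNA of 8 samples, 4 in each group, was read on single-colour Agilent arrays. The deposited scanner files hold intensities on a linear scale, detrended over the surface of the array by Feature Extraction, per the file headers, whose build is mm9. A deposited value table of intensities, with the same median of 132.9 in every column, served as an alternative. Per the labels' protocols, RNA was amplified from random primers and labelled with cyanine 3. Flags per spot for outliers and for signal well above background were taken as deposited.

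Control and outlier spots were left out and spots of a probe averaged. Every probe of the 8 genes had 1 spot per array. For the 300 probes with 5 spots the median SD between spots was 0.07 (log2), and the error given by the scanner software for a spot of the 11 probes was 10.0% to 16.8% of its signal, but up to 100% for Tmem30a. Log2 signals were scaled to the 75th percentile of each array. A gene was read from its brightest probe and tested if at least 4 of the 8 arrays had it well above background. All 8 genes met this, 7 of them on every array. Groups were compared with limma 3.58.1 in R 4.3.3. P-values were adjusted by Benjamini and Hochberg over all genes or, where said, all probes, at a two-sided threshold of 0.05. Probes were named through RefSeq tables of assembly GRCm38.p6, 31064 by accession, 8935 by symbol and 420 by an older symbol (67.1% together). The fit was tested on simulated data drawn from the wild-type means and pooled spreads of the tested genes, with genes independent and no general shift. It recovered 43% of 100 genes changed by 3 (log2) and 74% of 100 genes changed by 6, at the adjusted threshold. It also called 8 unchanged genes. A gene that did not pass may therefore still differ between the groups. The recovered shares depend on how many genes were changed and by how much, so they are not the power of the real comparison.

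The 8 genes, the lists and the tests were chosen with earlier results of these data known. Genes named beside the 8 are, per pathway list, those 2 with the smallest p in each direction, the 3 with the profile nearest to Ptdss1, and markers of the sort. Some genes that this rule names are not reported here. Per-array values are given for Atp11b, picked after its values were seen. Marker lists covered monocytes and macrophages, microglia, neutrophils, T and NK cells, B cells, dendritic cells, platelets, erythroid cells, endothelial cells, astrocytes, oligodendrocytes and neurons. Alternatives were other scalings, normexp background correction, the deposited table, other filters, all probes of a gene, slide row as a block and each array left out. The number of arrays limits the precision.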

Additional observations from a re-analysis of the deposited data

Results flagged for a closer look

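Xkr8 probe A was flagged because wild-type replicate 1, at 8.57, stood apart from the other 3 wild-type arrays: its gap to the nearest of them was 0.851 of the range of the group, above Dixon's 95% critical value for 4 samples. Without it the difference of Xkr8 was -0.27 in place of -0.42. Chance flags about 1 in 20 groups, and 22 groups (2 for each of the 11 probes) were examined.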

How the results depend on the processing

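None of the 8 genes passed in any of the 18 fits. Their median difference (-0.25) ranged from -0.48 to 0.16 when each array was left out, and its sign turned without wild-type replicate 4 (0.16), after cyclic loess (0.06) and with the mean over all probes (0.33). The number of genes called over all was 0 to 10 with an array left out (0 without wild-type replicate 1, where limma gave an unadjusted p under 0.05 for 605 genes upward and 2859 downward, and 0 without knockout replicate 7, with 768 and 2024), 4 after cyclic loess, 7 with the filter at all 8 arrays, 6 with the mean over all probes and 2 with slide row as a block, against 1. Ptdss1, Ano6 and Tmem30a kept a positive difference in every setting run. Ptdss2 was at 0.13 after cyclic loess and 0.27 within slide row 1, and at -0.61 to 0.26 with an array left out. Pisd was at 0.21 within slide row 2 and at -0.60 to 0.15 with an array left out, and Plscr1 at 0.02 within slide row 2 and -0.80 to 0.20. The mean over all probes gave 0.13 for Xkr8 and 0.53 for Atp8a1, by averaging probes of opposite sign. For the other reversals the cause was not tested. No paired analysis was possible because the groups share no replicate number. Signal over background limits Tmem30a, which had no value with the filter at all 8 arrays.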
